A study of Homo sapiens with 17 samples.

Results

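Secreted cytokines are the messenger proteins by which lymphocytes act on neighbouring cells. The 10 genes described here encode such proteins in NKYS, an established human cell line of natural killer (NK) cell lymphoma. They are IL10, OSM, LIF, IFNG, CCL5, TGFB1, TNF, LTA, LTB and CSF2, among 18377 genes measured by a probe set with 1 gene symbol. They were selected by name for their role, and on 1 measured result: IL10 and OSM had fallen after JAK3 siRNA. Where a gene had several probe sets, the one with the highest mean signal was used. CSF2 had no probe set with a single symbol and was not analysed here, which leaves 9 measured genes.

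RNA of NKYS cells, grown in medium with interleukin-2, was hybridised to 17 arrays after electroporation of an siRNA or a plasmid. JAK3 siRNA was on 2 arrays, and its control siRNA on 2. A further 2 arrays had EZH2 siRNA and 2 had a control siRNA, each tied by its title to 1 EZH2 siRNA array, which makes 2 pairs. Plasmids carried full-length EZH2 (6 arrays: Y244D, Y244A and WT, 2 each by title), EZH2 with its SET domain deleted (1 array) or an empty vector (2 arrays). The titles number the plasmid arrays as set 1 or set 2, except for 1 of the EZH2 WT arrays and the SET deletion array. For the 3 full-length plasmid arrays outside set 1, title and transfection field disagree on the construct. These arrays are called by their titles here, and the alleles were compared under both readings. All arrays are of 1 cell line, and no label states that replicate arrays are of separate cultures. The p-values therefore reflect array-to-array spread, which may be technical.

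JAK3 is the kinase attached to the common gamma chain, through which interleukin-2 activates the transcription factor STAT5. EZH2 is the methyltransferase of Polycomb repressive complex 2, and Y244D and Y244A replace 1 of its tyrosines by aspartate or by alanine. In NK cells, cytokine receptor signals set the output of interferon gamma and of other cytokines. IL10 encodes interleukin-10, which restrains macrophages and T cells. OSM and LIF encode oncostatin M and leukaemia inhibitory factor, relatives of interleukin-6 that signal through gp130. IFNG encodes interferon gamma and CCL5 the chemokine RANTES, both typical products of NK cells, and TGFB1 encodes the latent inhibitory factor TGF-beta 1. TNF, LTA and LTB encode tumour necrosis factor and the lymphotoxins alpha and beta.

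The values are deposited array signal intensities on a linear scale, and levels of different probe sets are not compared with each other. The lower quartile of all probe sets was 32.4 to 32.9 with siRNAs and 33.7 to 38.6 with plasmids. As a check of the cells, 12 NK markers were measured, of which 9 lay above the 30th percentile of all probe sets. They included GZMB (1069 to 5473 over the 17 arrays) and PRF1 (1641 to 3633), while KLRB1, CD2 and FCER1G did not reach it. Of 9 T cell markers 6 lay above it, among them CD4 (210 to 420) and TRAT1 (41.3 to 263), while CD3D, CD3E and CD3G did not, at 29.9 to 41.9. The summed signal of the T cell markers was 846 to 996 on siRNA arrays and 696 to 859 on plasmid arrays. The B cell sum was 420 to 545 over all arrays, and the monocyte and macrophage sum 475 to 598. Above the 30th percentile also lay 5 of 6 measured B cell markers and 5 of 8 of monocytes and macrophages. Of the epithelial and fibroblast markers 7 of 8 did, so these counts do not set NK cells apart. The targeted genes followed their labels. JAK3 had 138 and 137 with JAK3 siRNA, against 323 and 326 with its control siRNA (limma, adjusted p = 5.7e-06). EZH2 had 501 and 489 with EZH2 siRNA, against 926 and 691 with the paired control siRNA (limma, adjusted p = 0.0275), and 803 to 2221 on the 6 full-length plasmid arrays, against 259 and 350 with vector.

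IL10 had the largest difference of the cytokine genes after JAK3 siRNA and IFNG the largest after EZH2 siRNA, and the 250 bases before their starts are shown for that reason. RefSeq promoter windows of GRCh38.p14 were found for 7 of the 10 genes. The windows were searched on both strands for the STAT motif TTCNNNGAA, the AP-1 motif TGANTCA and the NF-kB motif GGGANTTTC, and matches are in capitals.
IL10, chr1:206772495-206772744, strand minus: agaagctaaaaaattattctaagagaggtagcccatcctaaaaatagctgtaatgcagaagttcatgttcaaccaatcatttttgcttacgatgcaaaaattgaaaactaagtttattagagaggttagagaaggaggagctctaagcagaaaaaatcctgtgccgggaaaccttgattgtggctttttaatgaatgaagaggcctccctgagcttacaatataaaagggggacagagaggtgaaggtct
IFNG, chr12:68159741-68159990, strand minus: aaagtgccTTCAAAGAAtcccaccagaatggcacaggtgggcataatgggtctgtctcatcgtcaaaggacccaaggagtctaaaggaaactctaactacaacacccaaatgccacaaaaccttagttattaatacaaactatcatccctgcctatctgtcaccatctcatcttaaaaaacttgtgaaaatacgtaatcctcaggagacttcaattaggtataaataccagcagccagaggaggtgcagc
The IL10 window before the outermost RefSeq start held none of the 3 motifs. A second IL10 window, before an inner start, held 1 AP-1 match, TGAGTCA. The IFNG window held 1 STAT match, TTCAAAGAA, which begins 242 bases before the start. STAT matches also lay in the windows of CSF2 (TTCTTGGAA), LTA and LTB, and the LTB window held an NF-kB match. Of all 35116 RefSeq promoter windows of this length, 6.57% held the STAT motif, 6.57% the AP-1 motif and 1.12% the NF-kB motif. A match is a run of letters, not a shown binding site.

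With JAK3 siRNA 8 of the 9 cytokine genes had lower signals on both arrays than on both control arrays, as had 27.1% of all tested genes. The 8 include IL10 and OSM, so nothing is read from the count. IL10 and OSM had the largest differences, followed by IFNG, CCL5 and LIF, while the TNF arrays of both groups overlapped. Since this comparison chose IL10 and OSM, its values are a description, with no test. In the RNA of a whole culture, fewer cells with a transcript and less transcript per cell cannot be told apart.

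IL10 had a signal of 480 and 489 with JAK3 siRNA, against 904 and 852 with the control siRNA. The lower control array was still well above both JAK3 siRNA arrays, and the mean log2 difference was -0.86 (SE 0.083), a 1.81-fold lower signal. OSM had 82.6 and 73.9 with JAK3 siRNA, against 128 and 123 with the control siRNA, a mean log2 difference of -0.69 (SE 0.103). The groups did not overlap for OSM. LIF, the relative of OSM that also lies on chromosome 22, had 43.8 and 44.0 with JAK3 siRNA, against 56.3 and 49.1 with the control siRNA. Its mean log2 difference was -0.26 (SE 0.131), and its 2 control arrays lay further apart than its JAK3 siRNA arrays.

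IFNG had 153 and 149 with JAK3 siRNA, against 222 and 219 with the control siRNA. Its same-numbered log2 differences were alike, at -0.54 and -0.55 (SE 0.181). That SE is shared with the EZH2 arm, where the IFNG pairs lay far apart, and is not the spread of these 2 differences. CCL5 had 502 and 479 with JAK3 siRNA, against 594 and 627 with the control siRNA, a mean log2 difference of -0.32 (SE 0.074). By the threshold of the choice, OSM was the last cytokine gene inside and CCL5 the first outside. IFNG, with the larger difference, came after CCL5 because the SE of IFNG was larger. This order describes the choice and is no test.

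TGFB1 had 755 and 788 with JAK3 siRNA, against 812 and 832 with the control siRNA, a mean log2 difference of -0.09 (SE 0.096). LTB had 138 and 135 with JAK3 siRNA, against 152 and 153 with the control siRNA. LTA had 58.6 and 56.0 with JAK3 siRNA, against 65.6 and 59.2 with the control siRNA. For these 3 genes all values with JAK3 siRNA were below those of the controls, but the mean log2 differences were small, at -0.16 (SE 0.074) for LTB and -0.12 (SE 0.076) for LTA. TNF had 33.5 and 31.2 with JAK3 siRNA, against 32.2 and 31.4 with the control siRNA, near the lower quartile of each array. TNF lay below the filter on low signal and entered no fit.

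The threshold was passed after JAK3 siRNA by IL10 and OSM, which were chosen for it, so their count is no result. Of all 14466 genes tested 1.38% passed. All 8 had both JAK3 siRNA arrays below both control arrays, as had 27.1% of all genes, and this too includes the 2 chosen genes. The median log2 difference of the 8 was -0.29, and that of all genes -0.01. The 8 include the 2 chosen genes here as well, so nothing is read from their median. Leaving out each of the 4 arrays in turn and the other settings gave -0.90 to -0.81 for IL10, -0.77 to -0.59 for OSM and -0.56 to -0.47 for IFNG.

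The EZH2 arm has its own control siRNA arrays, which give further values for these genes. Both JAK3 siRNA arrays lay below all 4 control siRNA arrays for IL10, OSM, LTB and LIF, which is 4 of 8 genes. The share of all genes was 12.2%, but IL10 and OSM were chosen on these same JAK3 siRNA arrays, and nothing is read from the count. For IL10 the lowest of the 4 controls was 852. For OSM it was 84.5, close to the JAK3 siRNA array at 82.6, a narrow margin. For IFNG and CCL5 the JAK3 siRNA arrays lay above the controls of the EZH2 arm and below their own.

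**Figure D1:**
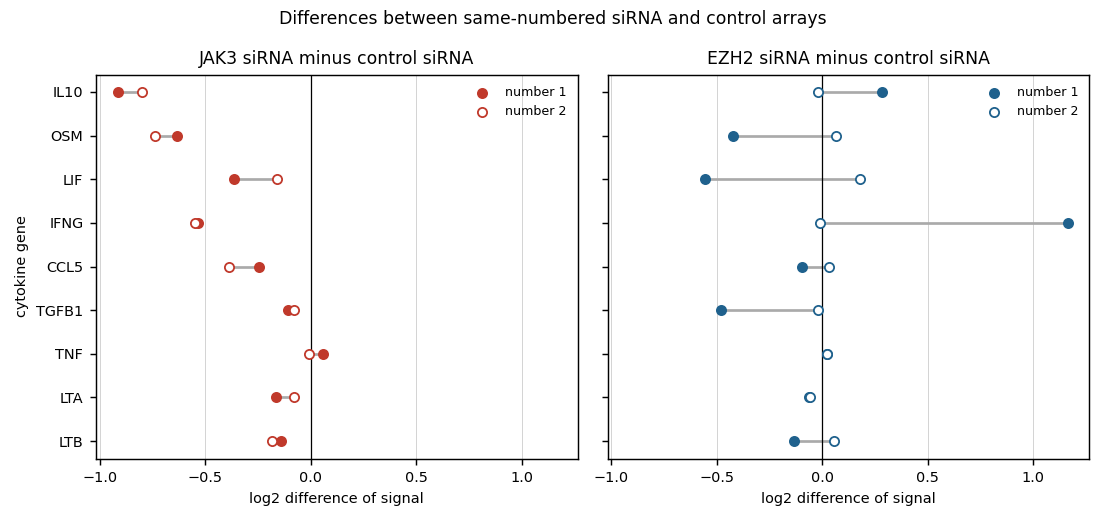
Log2 differences of signal between same-numbered siRNA and control arrays for 9 cytokine genes (rows), for JAK3 siRNA on the left and EZH2 siRNA on the right; filled points are number 1, open points number 2, and grey lines join them. After JAK3 siRNA 8 genes have both points below 0, among them IL10 and OSM, which were chosen on this comparison. Both JAK3 siRNA arrays lay below both controls for these 8 genes and for 27.1% of all tested genes. After EZH2 siRNA IFNG spans -0.01 to 1.16.

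After EZH2 siRNA none of the 8 tested cytokine genes passed the threshold (limma, adjusted over all genes), against 0.94% of 14466 genes. Of the 8, IFNG and TGFB1 had an unadjusted p under 0.05, as had 2253 of all genes. The pairs differed from each other for most of the genes. In pair 1 IFNG was higher and OSM, LIF and TGFB1 were lower with EZH2 siRNA, and in pair 2 all 4 were close to their control.

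IFNG had 141 and 72.8 with EZH2 siRNA in pairs 1 and 2, against 63.2 and 73.4 with the paired control siRNA. Only the EZH2 siRNA array of pair 1 stood apart, and the log2 differences were 1.16 and -0.01 (mean 0.58, SE 0.181; limma, adjusted p = 0.148). TGFB1 had 597 and 753 with EZH2 siRNA, against 832 and 765 with control siRNA. Its log2 differences were -0.48 and -0.02 (mean -0.25, SE 0.096; limma, adjusted p = 0.22), and again the EZH2 siRNA array of pair 1 was the low one.

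IL10 had 1311 and 1286 with EZH2 siRNA, against 1077 and 1305 with control siRNA. The groups overlapped, with log2 differences of 0.28 and -0.02 (mean 0.13, SE 0.083; limma, adjusted p = 0.512). OSM had 88.9 and 88.3 with EZH2 siRNA, against 119 and 84.5 with control siRNA, with log2 differences of -0.42 and 0.06 (mean -0.18, SE 0.103; limma, adjusted p = 0.445). For OSM it was the control array of pair 1 that lay high. LIF had 45.5 and 52.0 with EZH2 siRNA, against 66.9 and 46.0 with control siRNA, a mean log2 difference of -0.19 (SE 0.131; limma, adjusted p = 0.562). Here too the control array of pair 1 was the highest of the 4.

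The remaining 4 genes differed little. CCL5 had 235 and 228 with EZH2 siRNA, against 251 and 223 with control siRNA. LTB had 142 and 145 with EZH2 siRNA, against 156 and 140 with control siRNA. The arrays of CCL5 and LTB overlapped, with mean log2 differences of -0.03 (SE 0.074; limma, adjusted p = 0.905) for CCL5 and -0.04 (SE 0.074, adjusted p = 0.89) for LTB. LTA had 55.2 and 56.0 with EZH2 siRNA, against 57.6 and 58.3 with control siRNA, a mean log2 difference of -0.06 (SE 0.076; limma, adjusted p = 0.809). TNF had 32.3 and 34.3 with EZH2 siRNA, against 31.7 and 33.7 with control siRNA, again near the lower quartile. The median log2 difference of the 8 tested genes was -0.05, and that of all genes 0.00.

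The spread in these tests, and so each SE, is shared with the JAK3 arm. Same-numbered differences of that arm lay closer together than those of the EZH2 pairs for IL10, OSM, IFNG, LTB, LIF and TGFB1. Without either array of pair 2, which leaves pair 1 alone, the log2 differences were 1.16 for IFNG, -0.56 for LIF, -0.42 for OSM and -0.48 for TGFB1. Without either array of pair 1 they were -0.01 for IFNG, 0.18 for LIF, 0.06 for OSM and -0.02 for TGFB1. Each of these fits has 1 EZH2 pair and takes its spread from the JAK3 arm, so no test is read from them. In a fit of only the 4 arrays of the EZH2 arm IFNG was 1 of 217 genes called (limma, adjusted p = 0.00024). Its pairs were still at 1.16 and -0.01, so this p-value rests on the spread of other genes. No rise of IFNG is read from it. The NK markers differed between pairs as well. Their summed signal was 11410 and 10980 with EZH2 siRNA in pairs 1 and 2, against 7164 and 10460 with control siRNA, and its part in these results was not tested.

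The genes around the cytokines were described by 5 lists. Among receptors for these cytokines, 0 of 15 tested genes rose and 2 fell after JAK3 siRNA, where 1.38% of all genes passed. They were TGFBR1, the type I receptor of TGF-beta (-0.49, SE 0.078; limma, adjusted p = 0.00864), and TGFBR3, its coreceptor betaglycan (-0.42, SE 0.072, adjusted p = 0.012). TGFBR1 had 347 and 312 with JAK3 siRNA, against 465 and 462 with its control siRNA, and 255 and 293 with the control siRNA of the EZH2 arm, below both JAK3 siRNA arrays. TGFBR3 had 103 and 102 with JAK3 siRNA, against 143 and 132 with its control siRNA, and 108 and 97.6 with the control siRNA of the EZH2 arm, which lie on both sides of the JAK3 siRNA arrays. After EZH2 siRNA no receptor passed, with TGFBR1 at 0.20 (adjusted p = 0.223). The median of the receptors was -0.07 after JAK3 siRNA and 0.09 after EZH2 siRNA, against -0.01 and 0.00 for all genes.

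Among 16 tested feedback and target genes of interleukin-10 and gp130 signalling, 0 rose and 3 fell after JAK3 siRNA, where 1.38% of all genes passed. They were SOCS1, an inhibitor of JAK kinases (-0.50, SE 0.069; limma, adjusted p = 0.0038), CISH, a STAT5-induced inhibitor (-0.51, SE 0.083, adjusted p = 0.00964), and BCL2L1, which encodes the survival protein BCL-XL (-0.44, SE 0.076, adjusted p = 0.0124). All 3 are also targets of interleukin-2 signals. SOCS1 had 156 and 155 with JAK3 siRNA, against 220 and 219 with its control siRNA. BCL2L1 had 301 and 275 with JAK3 siRNA, against 404 and 378 with its control siRNA, and 297 and 316 with the control siRNA of the EZH2 arm, which overlap the JAK3 siRNA arrays. After EZH2 siRNA 1 of the 16 rose, ICAM1, which encodes an adhesion molecule (0.34, adjusted p = 0.0449, limma). Of all genes 0.94% passed after EZH2 siRNA. The median of the list was -0.02 after JAK3 siRNA and 0.04 after EZH2 siRNA, against -0.01 and 0.00 for all genes.

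Of 31 tested transcription factors known at cytokine genes, 0 passed after JAK3 siRNA. Of all genes 1.38% passed after JAK3 siRNA and 0.94% after EZH2 siRNA, so few calls would be seen in any list of this length. GATA3, a factor of type 2 cytokine genes, was nearest in this list with 0.31 (SE 0.074; limma, adjusted p = 0.0766). After EZH2 siRNA 1 of them rose, FOSL2, a subunit of AP-1 (0.51, SE 0.091; limma, adjusted p = 0.0341). FOSL2 had 794 and 706 with EZH2 siRNA, against 484 and 574 with control siRNA. Among 16 genes of processing and storage none passed in either arm. LTBP1, which holds latent TGF-beta in the matrix, had -0.30 after JAK3 siRNA (limma, adjusted p = 0.079), and ZFP36L1, which promotes decay of cytokine mRNA, had 0.39 after EZH2 siRNA (adjusted p = 0.0666). The median of the transcription factors was 0.07 after JAK3 siRNA and 0.06 after EZH2 siRNA, and that of the processing and storage genes -0.01 and 0.04.

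Of the other secreted cytokines and chemokines 25 of 46 measured genes passed the filter on low signal, against 14466 of all 18377 measured genes. None of the 25 passed after JAK3 siRNA, and none after EZH2 siRNA, against 1.38% and 0.94% of all genes. Their medians were -0.0037 and -0.0051. The smallest unadjusted p after JAK3 siRNA was that of IL16, a chemoattractant (-0.16, adjusted p = 0.402, limma), and after EZH2 siRNA that of IL12B, a subunit of interleukins (0.15, adjusted p = 0.331). With full-length EZH2 plasmids no gene of any of the 5 lists passed.

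Full-length EZH2 plasmids were compared with the vector over 6 and 2 arrays. None of the 7 tested cytokine genes passed the threshold (limma), and 0 had an unadjusted p under 0.05. Of all 14410 genes 0% passed and 10 had an unadjusted p under 0.05. EZH2 itself did not pass either, although its signal did not overlap (log2 change 1.85, SE 0.347, unadjusted p = 0.000348, adjusted p = 1).

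IL10 had a lowest signal of 40.4, a median of 87.2 and a highest of 170 on the 6 plasmid arrays, against 179 and 45.7 with vector. Both groups split by set: in set 1 the plasmid arrays had 127 to 170 against 179 with vector, and in set 2 they had 47.5 and 40.4 against 45.7 with vector. The log2 change of IL10 was -0.18 (SE 0.686; limma, adjusted p = 1). It was 0.81 without vector 1 and -1.16 without vector 2, so the vector array kept set its sign. The fit had no term for the set, so these 2 values also hold the difference between sets. With the set as a block, over the 7 numbered arrays, the change of IL10 was -0.18. OSM had a lowest signal of 54.9, a median of 84.1 and a highest of 103 with plasmid, against 104 and 54.9 with vector, a log2 change of 0.08 (SE 0.282). CCL5 had a lowest signal of 205, a median of 353 and a highest of 631 with plasmid, against 490 and 232 with vector, a log2 change of 0.03 (SE 0.498). For these 3 genes vector and plasmid arrays of the same set lay closer together than the 2 vector arrays did.

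IFNG had a lowest signal of 39.5, a median of 59.6 and a highest of 66.8 with plasmid, against 48.8 and 62.7 with vector, a log2 change of -0.04 (SE 0.226). TGFB1 had a lowest signal of 268, a median of 321 and a highest of 410 with plasmid, against 284 and 459 with vector, a log2 change of -0.11 (SE 0.221). LTB had a lowest signal of 162, a median of 247 and a highest of 291 with plasmid, against 331 and 171 with vector, a log2 change of -0.08 (SE 0.283). LTA had a lowest signal of 57.9, a median of 71.8 and a highest of 92.4 with plasmid, against 80.3 and 70.9 with vector, a log2 change of -0.07 (SE 0.184). In all 4 genes the plasmid and vector ranges overlapped. As for IL10, the vector array kept set the sign of all the other 6 tested genes in this fit with no term for the set. Without vector 1 and without vector 2 the change was 0.54 and -0.38 for OSM, 0.57 and -0.51 for CCL5, and 0.40 and -0.55 for LTB. It was -0.45 and 0.24 for TGFB1, -0.22 and 0.15 for IFNG, and 0.02 and -0.16 for LTA. With the set as a block, over the 7 numbered arrays, the change was 0.06 for OSM, 0.04 for CCL5 and -0.03 for LTB. In that fit TGFB1 had -0.13, IFNG -0.09 and LTA -0.025. LIF and TNF lay below the filter on low signal and were not tested. LIF had a lowest signal of 35.6, a median of 38.2 and a highest of 48.4 with plasmid, against 40.8 and 36.9 with vector. TNF had a lowest signal of 34.7, a median of 38.4 and a highest of 46.0 with plasmid, against 40.3 and 33.7 with vector.

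The array titled Y244A in set 2 lay furthest from its vector for several genes. It had 39.5 for IFNG against 62.7 with vector 2, 316 for TGFB1 against 459, 253 for LTB against 171, and 79.7 for OSM against 54.9. Y244D minus Y244A gave no call among the 7 genes under either reading (limma; 0% of 14410 genes in both). The unadjusted p was under 0.05 for 0 of the 7 by title and for 1, IFNG, by transfection field. IFNG was at 0.07 (SE 0.301, adjusted p = 1) by title and at -0.63 (SE 0.206, adjusted p = 0.803) by field. The effect of plasmids in set 1 minus that in set 2 passed for 0 of 7 cytokine genes over the 7 numbered arrays (limma; 0% of 14415 genes; 1682 genes but no cytokine gene at an unadjusted p under 0.05).

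**Figure D2:**
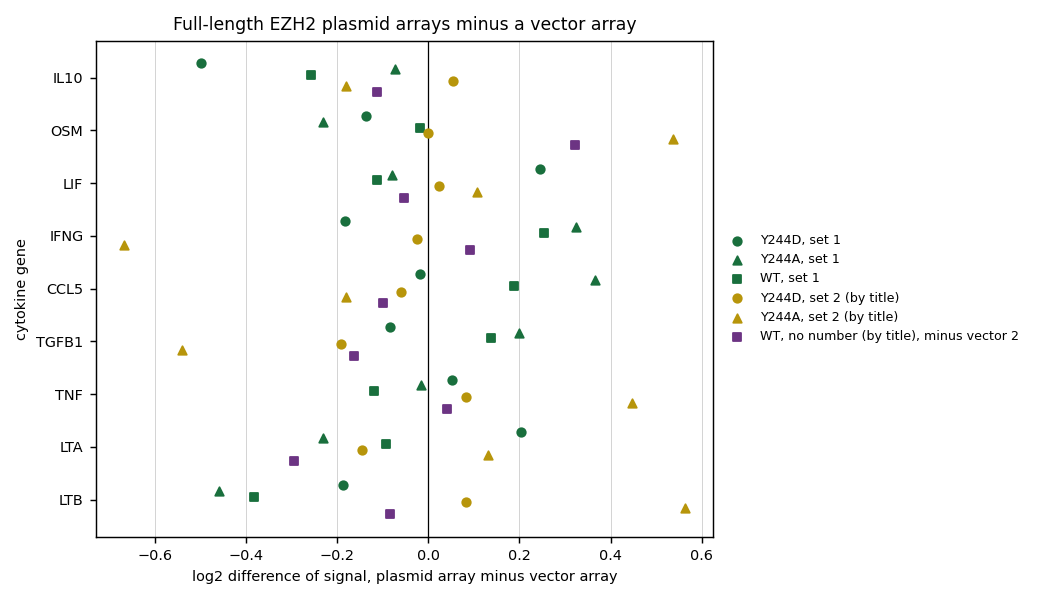
Log2 differences of signal between each full-length EZH2 plasmid array and a vector array for 9 cytokine genes (rows); green is set 1, yellow set 2, and purple the EZH2 WT array without a set number, drawn against vector 2. Most points lie within 0.5 of 0, and the set 2 array titled Y244A lies out for IFNG at -0.67 and for LTB at 0.56.

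The levels of several genes differed between experiments. IL10 had its highest signal, 1311, on an EZH2 siRNA array and its lowest, 40.4, on a set 2 plasmid array, at about the 30th percentile of that array. The order of its levels had EZH2 siRNA (1298 ± 17.7) and the control siRNA of that arm (1191 ± 161) on top, which overlapped. Next were the control siRNA of the JAK3 arm (878 ± 36.9) and JAK3 siRNA (485 ± 6.65; SD, n = 2 each), then set 1 plasmid and vector arrays (127 to 179), and at the bottom set 2 (40.4 to 47.5). In set 2 IL10 was near the 30th percentile of each array (38.0 to 40.8).

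CCL5 had another order. It was highest with the control siRNA of the JAK3 arm (611 ± 23.0) and on set 1 plasmid and vector arrays (484 to 631), which overlapped. JAK3 siRNA arrays (490 ± 15.9) overlapped with set 1 but not with their controls. The EZH2 siRNA arrays (231 ± 4.57), their control siRNA (237 ± 19.6; SD, n = 2 each) and set 2 (205 to 232) formed a lower level and overlapped. IFNG was highest with the control siRNA of the JAK3 arm (220 ± 2.71), then with JAK3 siRNA (151 ± 2.96), and 39.5 to 73.4 elsewhere except on the EZH2 siRNA array of pair 1. TGFB1 was at 597 to 832 on all siRNA arrays and at 268 to 459 on all plasmid arrays. LTB ran the other way, at 135 to 156 on siRNA arrays and 162 to 331 on plasmid arrays. Marker sums moved with this split: the NK sum was 7164 to 11410 on siRNA arrays and 4031 to 6653 on plasmid arrays, and that of 8 epithelial and fibroblast markers 551 to 599 and 644 to 1099. Their part in these levels was not tested.

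OSM was highest with the control siRNA of the JAK3 arm (126 ± 3.55; SD, n = 2) and lowest in set 2 for vector and the array titled Y244D (54.9 for both), with the other groups between them. LTA was at 55.2 to 65.6 on siRNA arrays and 57.9 to 92.4 on plasmid arrays, LIF at 43.8 to 66.9 and 35.6 to 48.4, and TNF at 31.2 to 34.3 and 34.7 to 46.0 apart from vector 2 at 33.7. TNF was near the lower quartile on the siRNA arrays, and stood clear of it on the set 2 array titled Y244A, at 46.0 against a lower quartile of 35.9.

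Of the 7 genes above the filter, 3 had set 1 and set 2 arrays that did not overlap, against 32.1% of all genes: IL10, CCL5 and OSM. All 3 were higher in set 1. CCL5 differed by 1.29 (set 1 minus set 2, log2) and OSM by 0.64. For IL10 no size is given, because its set 2 signals were near the 30th percentile. The interquartile range of log2 signal was narrower in set 1 (1.79 to 2.03) than in set 2 (1.99 to 2.18), and after quantile normalization the differences were 1.58 for CCL5 and 0.62 for OSM. Between the controls of the EZH2 arm and those of the JAK3 arm, 5 of 8 genes did not overlap, against 42.6% of all genes. IL10 was higher in the EZH2 arm (0.43 log2), and IFNG (-1.70), CCL5 (-1.37), OSM (-0.32) and LTA (-0.10) were lower. For IFNG and CCL5 this gap between controls exceeded the difference seen after JAK3 siRNA.

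**Figure D3:**
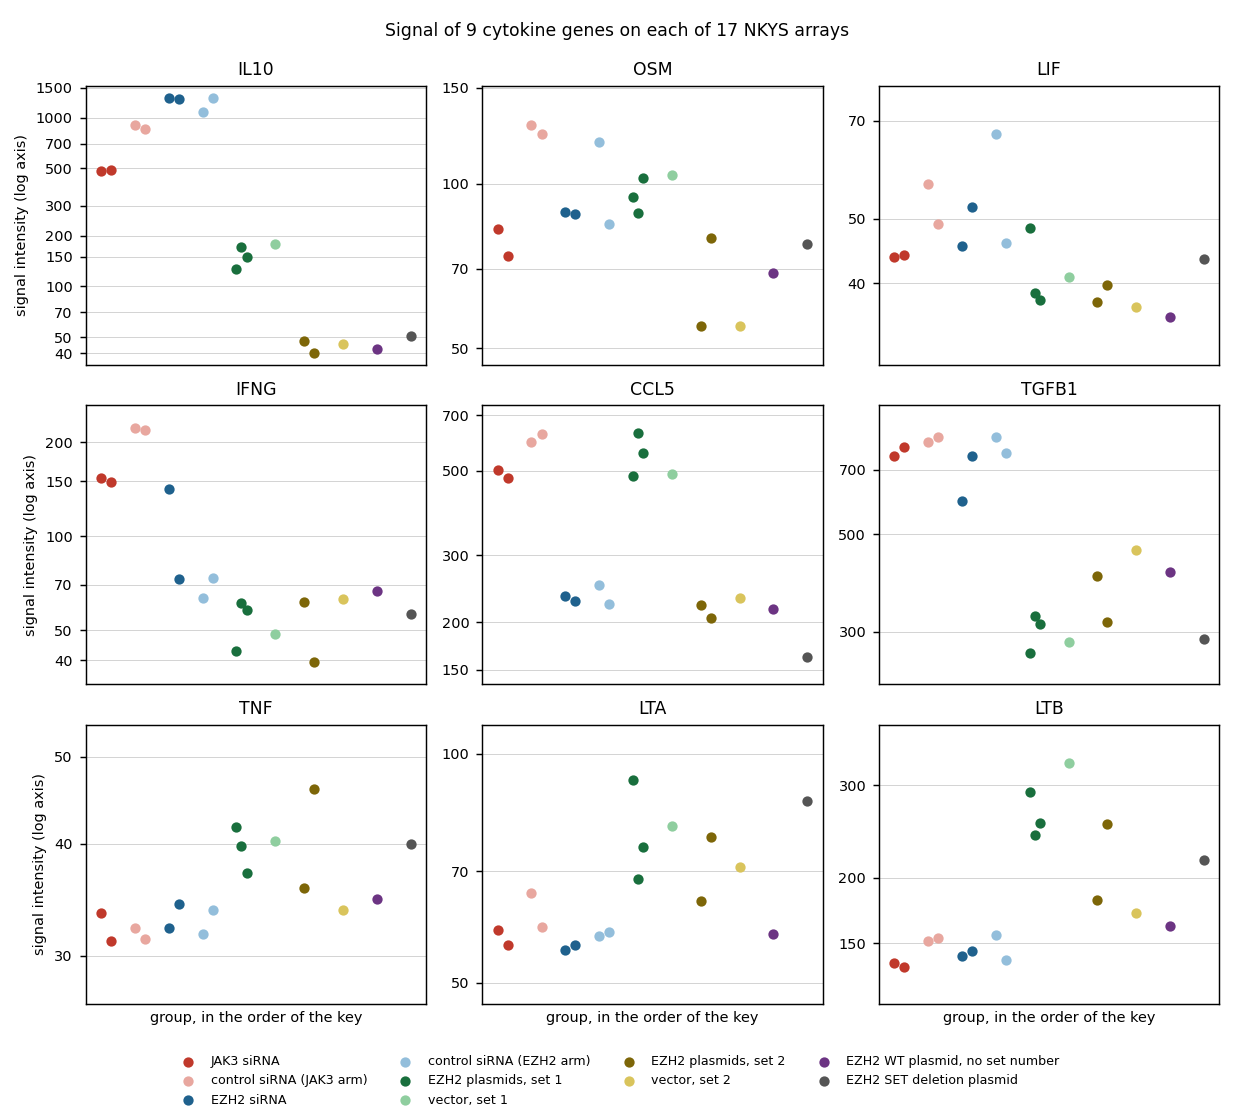
Signal intensity (log axis) of 9 cytokine genes on each of 17 arrays; every point is 1 array, coloured by group in the order of the key, siRNA arrays left and plasmid arrays right. IL10 spans 1311 on an EZH2 siRNA array and 40.4 in set 2. JAK3 siRNA arrays (red) lie below both of their controls for 8 of the 9 genes, and for 27.1% of all tested genes.

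The deletion of the SET domain was on 1 array, with no replicate. It had the lowest CCL5 signal of all 17 arrays, 162, against 490 and 232 with the vectors. IL10 was at 50.4 there, near vector 2 (45.7) and below vector 1 (179), and OSM at 77.7, between both vectors (104 and 54.9). The summed NK marker signal was also lowest on this array, at 4031 against 5199 and 4932 with the vectors, and its part in the CCL5 value was not tested.

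TNF, LTA and LTB were each covered by 3 or 4 probe sets, which measure the same RNA and are not independent. The 3 TNF probe sets correlated with the one used at 0.998 or more over the 17 arrays, and the 3 of LTA at 0.962 or more. Of the LTB probe sets, 3 were near identical and the fourth, with a transcript record of its own, ranged over 54.1 to 84.4 and had a log2 difference of -0.04 after JAK3 siRNA, against -0.16 for the one used. Across the 8 siRNA arrays OSM varied most like LTB among the cytokine genes (r = 0.955), and across the 9 plasmid arrays IL10 varied most like CCL5 (r = 0.955), where both follow the sets. IL10 and CCL5 had r = -0.73 across the siRNA arrays.

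Among 14425 other genes, those most like IL10 over the 17 arrays were COL6A5, a collagen chain (r = 0.967), GPAT2, an acyltransferase (r = 0.965), and CDCA4 (r = 0.964). Within the 8 siRNA arrays their r with IL10 was 0.16, 0.57 and 0.80, and within the 9 plasmid arrays 0.93, 0.87 and 0.77. COL6A5 had 524 and 563 with JAK3 siRNA, against 903 and 890 with its control siRNA. With the control siRNA of the EZH2 arm it had 529 and 588, which overlap the JAK3 siRNA arrays. GPAT2 had 298 and 299 with JAK3 siRNA, against 320 and 316 with its control siRNA, and CDCA4 235 and 232 against 259.3 and 250.5. Those most like OSM were IGFBP3, an insulin-like growth factor binding protein (r = 0.872), FRAS1, an extracellular matrix protein (r = 0.853), and RGS16, a regulator of G protein signals (r = 0.83). The 17 arrays fall into experiments with levels of their own, and these coefficients describe that pattern with no test.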

How the data were processed

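RNA was measured per the labels on 17 arrays, biotin-labelled with Nugen kits. The deposited values are linear signal intensity of 28869 probe sets, taken from the series' value table as the authors deposited it. Background correction, normalization and probe summary are not given in the sources used here. Intensities were used as log2.

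Probe sets were named by the platform annotation: 19310 had 1 symbol, 1752 several and 7807 none, and RefSeq (GRCh38.p14) changed 0 symbols. The probe set with the highest mean stood for a gene. Genes with a mean below the 30th percentile in a fit were left out, except JAK3 and EZH2.

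The log2 values were fitted in limma 3.58.1 (R 4.3.3) (lmFit and eBayes, two-sided, Benjamini-Hochberg over all genes, threshold 0.05). The 8 siRNA arrays formed 1 fit with 3 residual degrees of freedom, with EZH2 pairs as a block because the titles tie them (deviations within pairs correlated at -0.09). Vector and full-length plasmid arrays formed another with no term for the set (6 degrees of freedom, 4 for alleles). The 7 numbered arrays formed the set comparison (3 degrees of freedom). The fits were tested on simulated data. Genes outside the 10 cytokines were named by rule: up to 3 calls per list and direction, or the smallest p, and the 3 genes most like IL10 and OSM. Cytokines and lists were chosen with earlier results of these data known. Alternatives changed normalization, filter, probe set rule, eBayes, array weights, blocks and the arrays kept. No array repeated another, and the number of arrays limits the precision.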

Additional observations from a re-analysis of the deposited data

Results flagged for a closer look

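LIF had a signal of 48.4 on the set 1 Y244D plasmid array, apart from the other 5 full-length plasmid arrays (35.6 to 39.8). The gap was 0.639 of the range, just over Dixon's critical value for 6 samples. Chance alone gives such a gap in about 1 of 20 groups, and 9 genes were examined. LIF is below the filter on low signal in these arrays.

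LTB had differences of opposite sign in the numbered plasmid sets. All 3 set 1 plasmid arrays lay below vector 1 (log2 -0.19, -0.46 and -0.38), and both numbered set 2 plasmid arrays lay above vector 2 (0.08 and 0.56). The EZH2 WT array without a number lay below vector 2 (-0.09). The difference of the effects was -0.67 (SE 0.332; limma, adjusted p = 0.427), and did not pass. It rests on 1 vector array per set.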

How the results depend on the processing

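The count of all genes called after JAK3 siRNA was 200, and became 94 with no filter, 699 with array weights, 523 in a fit of only the 4 arrays compared, 104 with a replicate block of the shared number, and 33 to 45 without 1 array. IL10, OSM and the other 6 tested cytokine genes kept a difference below 0 after JAK3 siRNA in each setting in which they were fitted. Deviations of same-numbered arrays correlated at 0.15 in the JAK3 arm, where the number is no stated pairing. After EZH2 siRNA 136 genes were called, 80 with quantile normalization, 230 with trend and robust eBayes, 217 with only the arrays compared, 20 with no replicate block, 0 with no filter, 0 with array weights, and 0 to 1511 without 1 array. Their split was 54 higher and 82 lower, 47 and 33 with quantile normalization, and 31 and 161 with each array centred on its median. Cytokine genes called after EZH2 siRNA numbered 0, and 1 with only the arrays compared. That gene was IFNG, whose pairs differed from each other, and no rise is read from it. Leaving out 1 array of the EZH2 arm leaves 1 pair and no replicate, so no calls of cytokine genes are given for it. The plasmid, allele and set comparisons gave 0 cytokine genes in all settings that could be fitted, except 1 (LTB, -0.70, adjusted p = 0.0228) with array weights in the set comparison. Dropping a vector leaves the set comparison without a value. Centring moved the median of all genes to 0.21 in the set comparison (0.08 as deposited) and to -0.14 between alleles by field (-0.05 as deposited). The cause of these changes was not tested. Quantile normalization of the comparisons between sets and between controls was chosen after seeing the data, and left the same genes without overlap.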
